A study of Mus musculus with 2 samples.

Results

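The 8 genes described here encode the urea cycle and its nearest partners in arginine metabolism, namely Nags, Cps1, Otc, Slc25a15, Ass1, Asl, Arg1 and Arg2. They were chosen by name from a list of 8, and every array probe whose RefSeq accession belongs to one of these genes was taken, which gave 10 probes and 19 spots per array among 37074 gene names on the array. The list was drawn up after the ratios of these same arrays were known, so the ratios of its genes are a description and support no test. RNA of the prefrontal cortex (PFC) was read on 2 Agilent single-color arrays of one slide. One array held a pool from the control (C) group and the other a pool from the chronic mild stress (CMS) group. All mice were male, of the strain given as C57Bl/6 N sea, and were 9 to 10 weeks old at the start. The C group received ordinary care and was housed in groups. The CMS group was housed singly and exposed for 4 weeks to stressors such as water deprivation, a wet or tilted cage, restraint, forced swimming and foot shocks, so that single housing and the stressors cannot be told apart. Brains were taken 1 day after the final stressor. The series description gives RNA of 7 mice in each pool, whereas the methods give a larger number of mice for arrays and qRT-PCR together.

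Because each group is 1 array, the spread between mice is unknown, no test was possible and ratios are given without p-values. Signals are in arbitrary units after scaling both arrays to the same mean of 2500, and the error printed beside a signal is the one the scanner software gives for the spot. The lowest signal that was well above background was 17.8 for the C pool and 17.6 for the CMS pool. Where a probe was well above background in the CMS pool only, its C signal was set to 17.8 or to its own signal if that was higher, and the fold change is a lower bound. The same was done with 17.6 where a probe was well above background in the C pool only. Spot error was taken from 335 probes printed more than once and well above background in both pools, which leaves out dim probes. Log2 ratios of the spots of a probe had an SD of 0.13. It was 0.26 for 66 probes with a mean signal under 100, 0.10 for 131 probes between 100 and 1000, and 0.06 for 138 probes over 1000. Of 27117 gene names with a ratio, 1.96% were above 2-fold in the CMS pool, 0.564% were below 0.5-fold and 2.53% were past either limit, and the median log2 ratio was -0.03. In bulk RNA, more cells of a type and more RNA per cell cannot be told apart.

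The urea cycle turns ammonia into urea, and it is run in full by the hepatocytes of the liver. Nags makes the activator that Cps1 needs, and Cps1 and Otc work inside mitochondria, supplied with ornithine by the carrier Slc25a15. Ass1 and Asl then build arginine in the cytosol, and arginase splits it into urea and ornithine. Most other tissues, brain included, keep only the part from citrulline to arginine, which feeds nitric oxide synthesis, and Arg2 is the mitochondrial arginase found mainly outside the liver.

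Expression of 3 of the 8 genes, Cps1, Otc and Arg1, exceeded that of the C pool by more than 2-fold in the CMS pool, and none was below 0.5-fold. The share is 37.5%, against 1.96% of all gene names above 2-fold and 2.53% past 2-fold in either direction, and because the list was chosen on this contrast nothing is read from the difference. Ass1 was 1.87-fold and Asl 1.27-fold higher, Arg2 was 1.03-fold, and Nags was at least 1.37-fold higher. Slc25a15 was not well above background in either pool and has no ratio. Each gene apart from Otc and Ass1 was read by 1 probe with 1 spot. The median log2 ratio over the 7 genes with a ratio was 0.90, and 2 of these 7 ratios, those of Otc and Nags, are lower bounds.

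**Figure D1:**
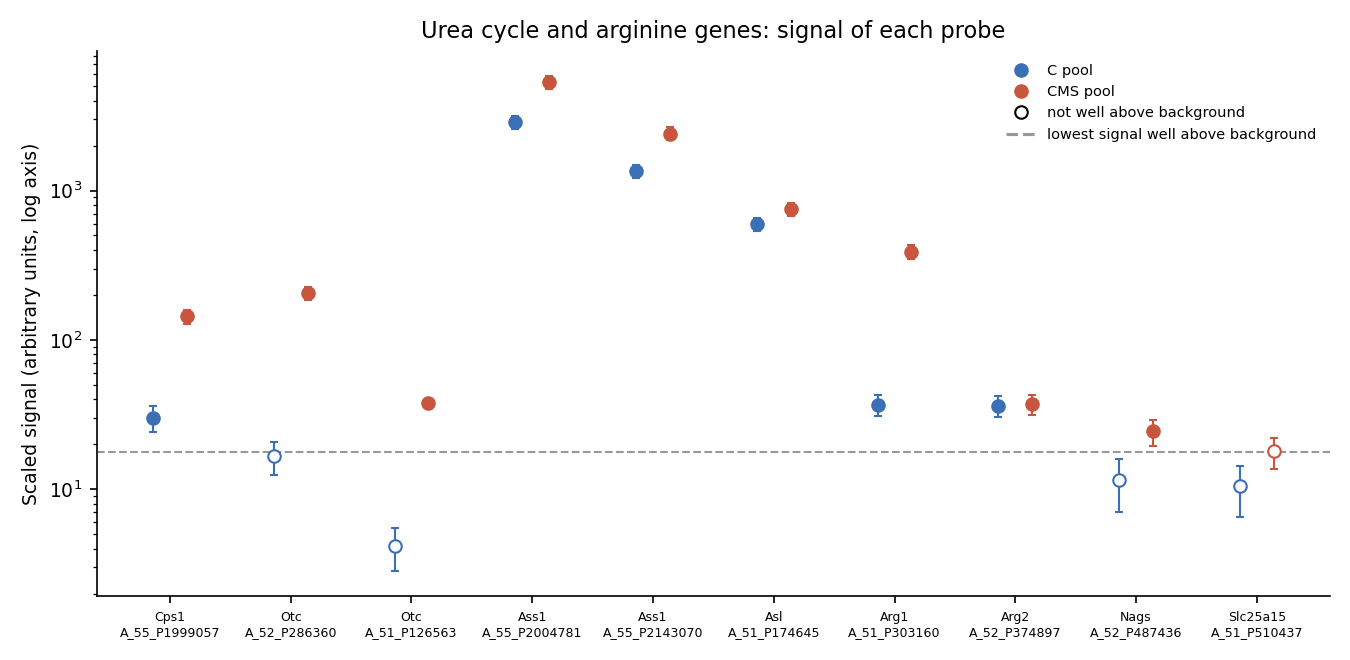
Scaled signal (arbitrary units, log axis) for the 10 probes of the 8 genes in the C pool and the CMS pool. Error bars are the scanner software's error, open points are probes not well above background, and the dashed line is the higher of the lowest signals well above background, 17.8. The points of Cps1, Otc and Arg1 lie far apart between the pools, while those of Arg2 overlap.

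The entry to the cycle was dim in the C pool. Nags (NM_145829), the enzyme that makes N-acetylglutamate, had a signal of 11.6 ± 4.5 in the C pool, not well above background, and 24.4 ± 4.9 in the CMS pool. Its unbounded fold would be 2.11, so whether it passes 2-fold depends on how dim probes are treated. Cps1 (NM_001080809), the carbamoyl phosphate synthetase that takes up ammonia, had 30.1 ± 5.8 for the C pool and 144 ± 15 for the CMS pool. The log2 ratio of Cps1 was 2.26 ± 0.32 by the scanner error, a fold of 4.77, and 210 of 27117 gene names had a higher ratio. Its C signal was only 1.69 times the lowest signal well above background, and with normexp background correction the log2 ratio was 1.01.

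Otc (NM_008769), ornithine transcarbamylase, joins carbamoyl phosphate to ornithine to give citrulline, and it was measured by a pair of probes. The brighter probe gave 16.6 ± 4.2 in the C pool, not well above background, and 206 ± 21 in the CMS pool, a ratio of at least 11.6-fold (log2 ratio 3.53). The other probe is printed 10 times on each array, which gave 10 readings of 1 labelled pool and not of 10 mice. Its 10 spots ranged from 3.54 to 4.77 with a median of 4.15 in the C pool, and from 30.8 to 46.2 with a median of 36.8 in the CMS pool. None of the C spots and all 10 of the CMS spots were well above background, and the 2 sets of spots did not overlap. The spots lay between rows 14 and 285 of 384 and between columns 15 and 153 of 164. With the floor at 17.8, this probe was higher by at least 2.13-fold in the CMS pool. Without a floor the quotient was 9.14, but its C signal was not well above background, so 9.14 is no measured fold. With normexp background correction the log2 ratio of Otc was 1.79, and with the mean of both probes it was 2.31.

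**Figure D2:**
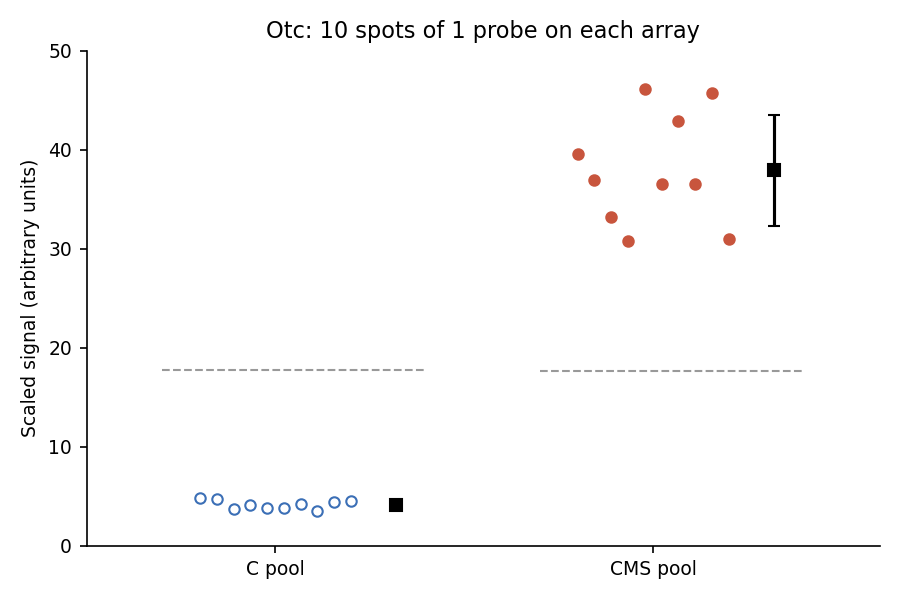
Scaled signal (arbitrary units) of the 10 spots of the replicated Otc probe on each array, with the mean and SD over spots as squares and bars and the lowest signal well above background as dashed lines. Open points are spots not well above background. The C spots reach 4.77 at most, and the CMS spots start at 30.8.

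The sequence upstream of Otc is shown because Otc has the highest ratio of the 8 genes, a lower bound, and has an upstream window in the table used. Windows of RefSeq (GRCm38.p6) were matched for 4 of the 8 genes, Otc, Ass1, Nags and Slc25a15. The bases before the most upstream start of the Otc gene model lie at chrX:10252055-10252229 on the plus strand, with matches to the C/EBP-type motif TTNNGNAA, on either strand, in capitals.
Otc: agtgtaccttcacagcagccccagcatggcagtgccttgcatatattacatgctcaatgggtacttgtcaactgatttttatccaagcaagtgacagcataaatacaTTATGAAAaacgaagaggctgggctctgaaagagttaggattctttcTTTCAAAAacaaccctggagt
The 250 bases before the start of Ass1 lie at chr2:31470020-31470269 on the plus strand and are shown for contrast, since Ass1 is well above background in both pools. Matches to the GC box GGGCGG, on either strand, are in capitals.
Ass1: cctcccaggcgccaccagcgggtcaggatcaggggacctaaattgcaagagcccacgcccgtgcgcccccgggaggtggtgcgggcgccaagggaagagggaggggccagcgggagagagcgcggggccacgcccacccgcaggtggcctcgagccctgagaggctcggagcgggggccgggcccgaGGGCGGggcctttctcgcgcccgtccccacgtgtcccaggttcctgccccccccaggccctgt
Over the 250 bases before the transcript start of the window, Otc had 43.6% G and C and 1 CpG, and Ass1 had 75.6% and 23. For Otc that start lies inside the gene model, and only the first 175 of these bases are printed. Positions given for Otc are therefore not counted from the end of the printed sequence. Of all 32851 windows, 79.9% had at least the G and C content of Otc and 3.61% at least that of Ass1. TTNNGNAA occurred in 36.8% of the windows, including those of Otc, with 2 matches starting at bases -143 and -96 from the transcript start of its window, and Nags, with 1 match. GGGCGG occurred in 32.7% of the windows, including those of Ass1, Nags and Slc25a15 and not that of Otc. The HNF4A motif CAAAGTCCA (0.384% of windows), the TATA box TATAAA (12.4%) and the cAMP response element TGACGTCA (1.55%) occurred in none of these windows of the 4 genes. Neither printed sequence holds matches to more than 1 of the 5 motifs, and a match in letters is no evidence of binding.

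Slc25a15 (NM_181325), which carries ornithine into mitochondria, had a signal of 10.4 ± 3.9 for the C pool and 17.9 ± 4.1 for the CMS pool. Neither value was well above background, and no fold is given.

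Ass1 and Asl, both cytosolic, had the smallest scanner error of the log2 ratio among the 5 genes well above background in both pools. Ass1 (NM_007494), argininosuccinate synthase, had 2863 ± 286 for the C pool and 5348 ± 535 for the CMS pool on its brighter probe, a log2 ratio of 0.90 ± 0.20. Its other probe had 1342 ± 134 and 2407 ± 241, a log2 ratio of 0.84 ± 0.20. The ratios of the probes thus differed by less than the scanner error, and neither passed 2-fold. Of all gene names, 2.18% had a ratio as high as that of Ass1. Asl (NM_133768), argininosuccinate lyase, which releases arginine, had 592 ± 59 for the C pool and 755 ± 76 for the CMS pool. The log2 ratio of Asl was 0.35 ± 0.20, and 6.94% of gene names had a ratio as high.

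The forms of arginase had ratios of 10.6-fold and 1.03-fold. Arg1 (NM_007482), the cytosolic arginase of liver that also serves as a marker of some activated macrophages, had 36.7 ± 5.9 for the C pool and 390 ± 39 for the CMS pool. Its log2 ratio was 3.41 ± 0.27, a fold of 10.6, and it was the highest ratio among the 5 genes well above background in both pools. With normexp background correction it was 2.21. Arg2 (NM_009705) had 36.2 ± 5.8 for the C pool and 37.2 ± 5.7 for the CMS pool, a log2 ratio of 0.04 ± 0.32, which was -0.13 without scaling of the arrays. The Arg2 values differed by less than their errors. With 1 pool per group, the difference between the arginases could not be tested against mice.

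**Figure D3:**
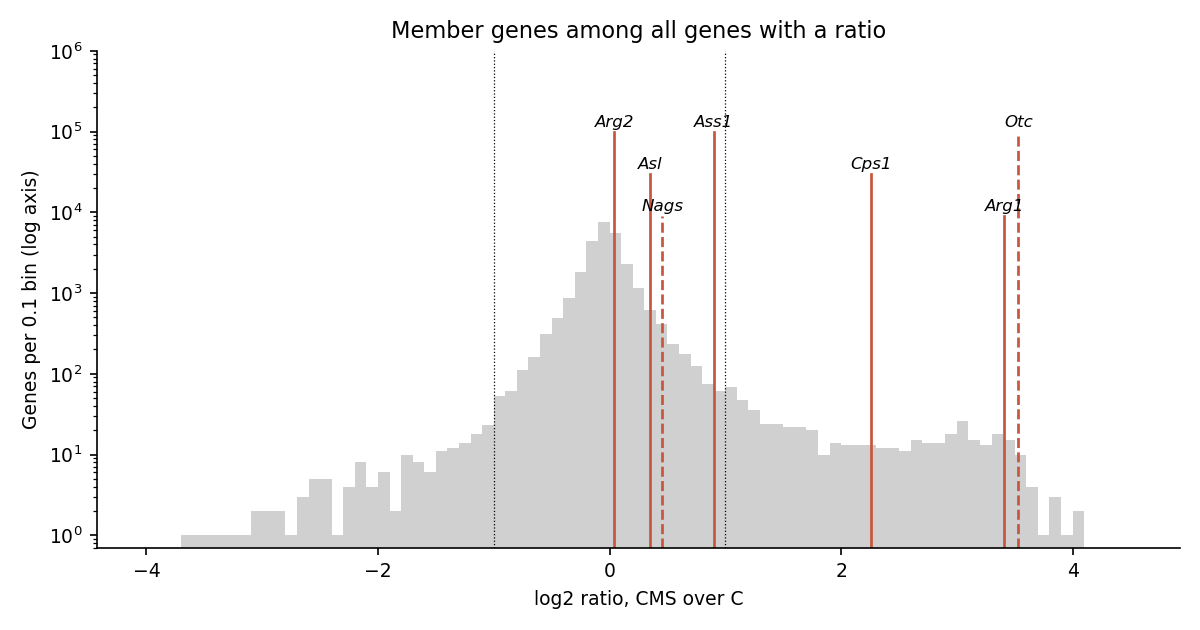
Number of gene names (log axis) per 0.1 of log2 ratio, CMS over C, for all 27117 gene names with a ratio, with the 7 urea cycle and arginine genes that have a ratio as lines. Dashed lines are lower bounds and dotted lines mark 2-fold. Arg2, Asl and Nags stand within the main peak or on its flank, Ass1 stands just inside 2-fold, and Cps1, Arg1 and Otc stand in the right tail.

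The other genes of arginine and nitrogen metabolism, in 8 lists set by role, mostly differed little. Of 58 listed genes, 56 were named on the array and 52 had a ratio. Of these, 2 were more than 2-fold higher, against 1.96% of all gene names, and 1 was below 0.5 times, against 0.564%. Their median log2 ratio was -0.02, beside -0.03 for all gene names, and 47 of the 52 lay within 0.3 of 0. Among 15 of these genes with at least 2 probes with a ratio, the probes did not differ in their call for any gene.

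Among these other genes, which leave out the arginases, those that handle arginine once it is made showed little difference apart from Agxt2, given below. For polyamine metabolism, all 11 genes with a ratio lay between -0.15 and 0.18, with Odc1, the ornithine decarboxylase, at -0.07. The 4 genes of creatine synthesis and use lay between -0.09 and 0.05, with Gatm, which moves the amidino group of arginine to glycine, at 0.05. The nitric oxide synthases Nos1, Nos2 and Nos3 had log2 ratios of 0.12, -0.15 and 0.00. For arginine and urea transporters, all 9 genes with a ratio lay between -0.21 and 0.25, and Slc7a9 and Aqp9 were not well above background in either pool. Cad, the cytosolic enzyme that makes carbamoyl phosphate for pyrimidines, was at 0.26.

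Outside 0.3 lay 5 genes, which are named because of their values. Prodh2, a hydroxyproline dehydrogenase of liver and kidney, had 44.6 for the C pool and 140 for the CMS pool, a log2 ratio of 1.65. Agxt2, which breaks down methylarginines, went from 18.0, not well above background, to 44.3 and was at least 2.46-fold higher. Slc25a13, the aspartate and glutamate carrier of liver mitochondria that supplies aspartate to Ass1, had 108 and 168, a log2 ratio of 0.64. Its close relative Slc25a12, the main such carrier of brain, had 7998 and 7292, a log2 ratio of -0.13. Car5a, the mitochondrial carbonic anhydrase of liver that supplies bicarbonate to Cps1, had 46.1 and 71.3, a log2 ratio of 0.63. Car5b, the form found more widely, had 70.3 in the C pool and 12.1, not well above background, in the CMS pool. It was at most 0.25 times its C signal. All 5 genes outside 0.3 were read by 1 probe with 1 spot each. Glul, the glutamine synthetase that takes up ammonia in brain, stood at 0.03.

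**Figure D4:**
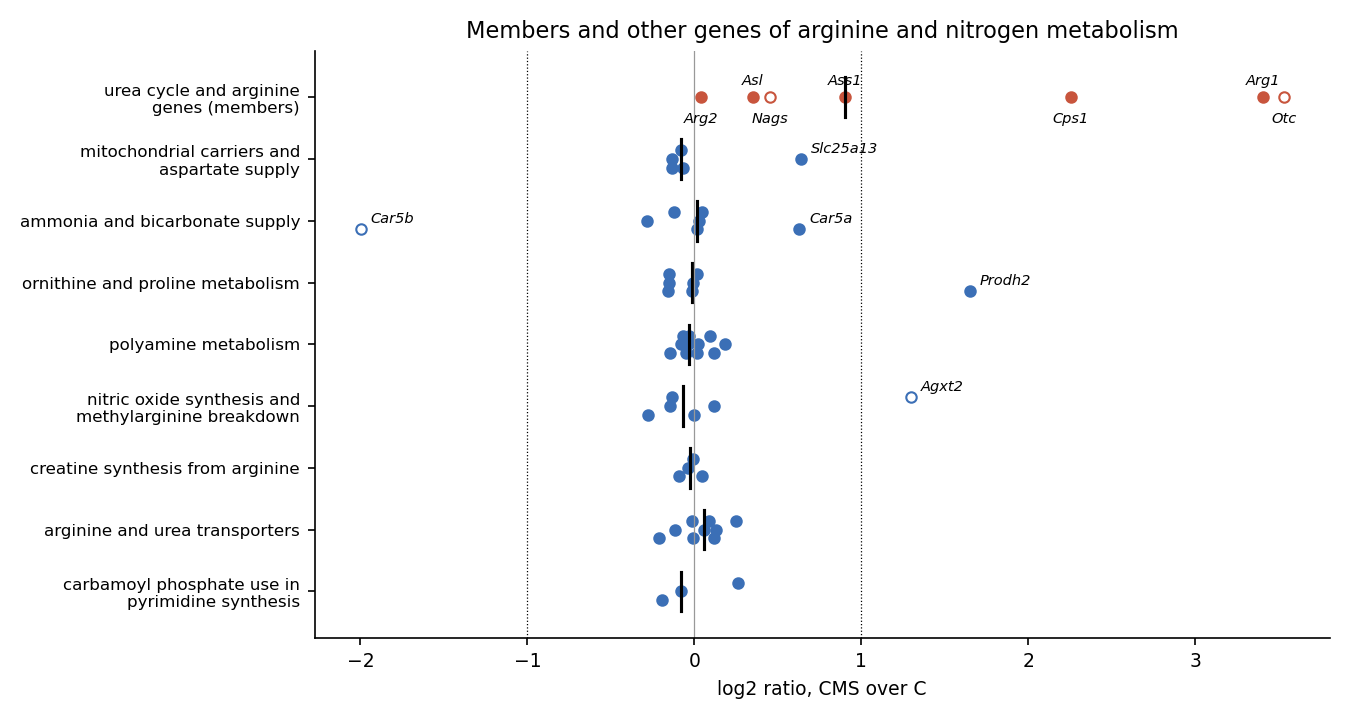
Log2 ratio, CMS over C, of the 7 urea cycle and arginine genes with a ratio (top row) and of the other genes of arginine and nitrogen metabolism in 8 lists. Open points are bounds, black bars are medians and dotted lines mark 2-fold. Apart from Slc25a13, Car5a, Prodh2, Agxt2 and Car5b, the listed genes lie within 0.3 of 0.

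Markers of hepatocytes moved with Cps1, Otc and Arg1. All 24 hepatocyte markers listed were well above background in both pools, and 23 of them exceeded 2-fold in the CMS pool. Their log2 ratios had a median of 3.05, with Tat the lowest at 0.74, and their summed signal was 23314 for the C pool and 134494 for the CMS pool. Apoa2 alone gave 10714 of the C sum and 24606 of the CMS sum. Its log2 ratio was 1.20 on the probe used here, below the ratio that the paper lists for Apoa2. Alb went from 1509 to 17486. Arg1, at 3.41, and the bound of Otc, at 3.53, lay above this median, Cps1, at 2.26, lay below all of these markers except Tat, Fga and Apoa2, and Ass1, at 0.90, lay between Tat and Fga. Hnf4a, the transcription factor at the center of the study, went from 45.1 to 529, a log2 ratio of 3.55. These lists were chosen with earlier results of the arrays known, and the part of hepatocyte RNA in the values of the urea cycle genes was not tested.

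Within the liver, urea cycle enzymes belong to the periportal hepatocytes, while Glul and Oat mark those around the central vein. Of 6 periportal markers, Pck1, at 3.57, Cyp2f2, at 2.77, and Sds, at least 7.30-fold higher, were past 2-fold, Pck1 being on the hepatocyte list too, and Hal was at 0.68. The periportal markers Gls2 and Hsd17b13 were at -0.12 and -0.04. Of 7 pericentral markers, Cyp2e1, on the hepatocyte list too, was at 2.90, Glul, Oat, Slc1a2 and Lgr5 lay between -0.16 and 0.04, and Cyp1a2 and Rhbg were not well above background in either pool. Glul, Gls2, Oat and Slc1a2 are also known to be expressed in cortex.

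Markers of other cells that can hold urea cycle enzymes or arginase were also read. Intestinal epithelium, which carries Cps1 and Otc, had a median of -0.05 over 6 of 10 markers with a ratio, with Fabp2 at 1.51 and Sis at least 2.27-fold lower. Of this list, Cdx1, Cdx2, Alpi and Reg3b were not well above background in either pool. Fabp2, Vil1, Lct and Anpep were well above background in both pools, and Sis and Krt20 in the C pool only. Kidney proximal tubule, a site of Ass1 and Asl, had a median of -0.09 over 6 of 8 markers and summed signals of 1472 and 1335. One of the 6, Slc5a2, was not well above background in the CMS pool and was at most 0.667 times its C signal, and the others lay between -0.24 and 0.31. Markers of alternatively activated macrophages, which can express Arg1, had a median of 0.03 over 5 of 6, with Chil3 at 0.84 and Mrc1 at 0.11. Retnla of this list had 33.2 in the C pool and 10.3, not well above background, in the CMS pool, and was at least 1.89-fold lower. Cd163 was not well above background in either pool, whereas Chil3, Mrc1, Clec10a and Mgl2 were in both. The summed signals of 28387 and 26334 were nearly all Mgl2. Kupffer cell markers had a median of 0.45 over 6 of 7, neutrophil markers 0.68 over 7 of 8 and erythroid markers 0.42 over 5 of 8. Above 2-fold were Clec4f of the Kupffer list, at least 2.20-fold, and S100a9, at 1.18, and Ltf, at least 2.03-fold, of the neutrophil list. Vsig4 of the Kupffer list was at least 1.98-fold higher. Their part in the values of the urea cycle genes was not tested.

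Markers of brain cell types were present in both pools, and they do not tell PFC from other brain regions. All 36 markers of neurons, astrocytes, oligodendrocytes, microglia and brain endothelium were well above background in both pools, and their log2 ratios lay between -0.34 and 0.20 with a median of -0.04. The 7 choroid plexus markers, of which 2 have bounds only, lay between -0.12 and 0.35. Gapdh was at 0.04.

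**Figure D5:**
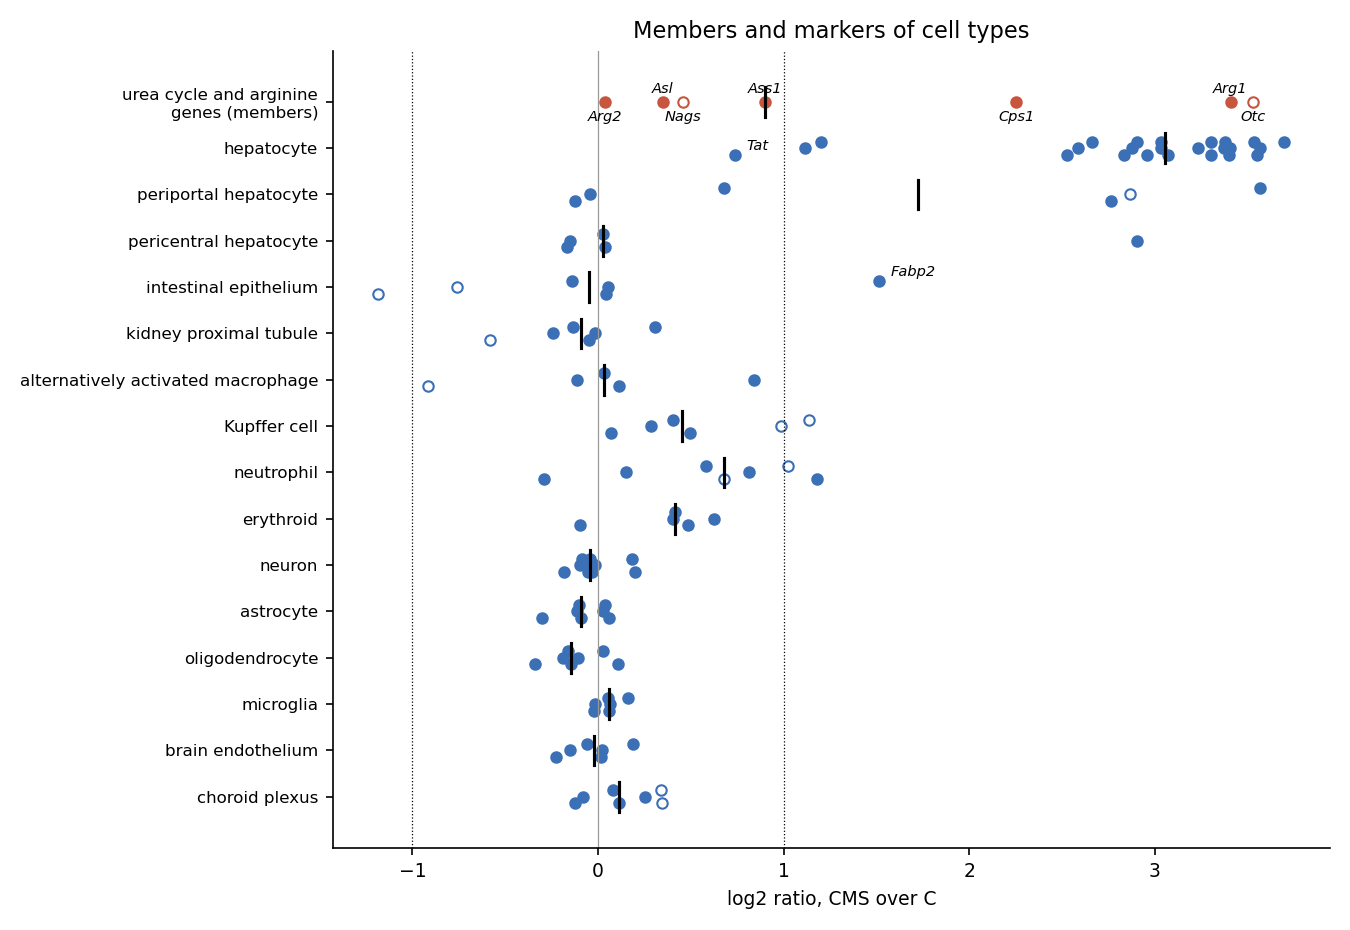
Log2 ratio, CMS over C, of the 7 urea cycle and arginine genes with a ratio (top row) and of the markers of 15 cell types. Open points are bounds, black bars are medians and dotted lines mark 2-fold. Hepatocyte markers lie at 0.74 and above, with a median of 3.05, and brain cell markers lie near 0.

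The genes with a log2 ratio nearest to that of Arg1 among genes well above background in both pools were Mup18, at 3.41, Cyp3a11, at 3.40, and Mug2, at 3.40. The likeness is a difference of at most 0.0058 in 1 ratio from 2 arrays. Mup18 belongs to a family of near-identical copies whose transcripts its probe may also read. Cyp3a11 is one of the hepatocyte markers above.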

How the data were processed

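Total RNA of the PFC, pooled within each group before labelling, was hybridized to Agilent SurePrint G3 mouse arrays, and per the labels the images were read with Agilent Feature Extraction 10.10.1.1. The authors deposited for each spot a processed signal intensity, background-subtracted and spatially detrended but not scaled between arrays, and a table of the same intensities times 1 factor per array. Each array held 59305 spots of 55681 probes besides controls, of which 65.2% (C) and 65.9% (CMS) were well above background and none was saturated. The number of arrays limits the precision.

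Here spots that are controls or marked as outliers by the scanner software (130 for C, 133 for CMS) were removed, spots of 1 probe were averaged, and the arrays were brought to a plain mean of 2500. The methods state an average of 2500, but the deposited table gave the same count of changed genes as scaling to the trimmed mean (686, against 685 here). A probe needed at least 0.5 of its spots well above background to count as such. Unversioned accessions were looked up in RefSeq's genes (GRCm38.p6), which gave 30740 spots a symbol, and the others kept the array's identifier. For a gene with several probes, the brightest with a ratio was used. A gene counted as changed above 2 or below 0.5 times.

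The members and lists were chosen with earlier results of these data known. Named genes were the 8 members with every probe, the pathway and marker lists, some reference genes, and the 3 genes nearest in ratio to the member with the largest ratio measured in both groups. The other lists covered 15 cell types. Calling was tested on simulated data. The 13 alternatives covered scaling, quantile normalization, the deposited table, dim probes, outlier spots and the choice of probe. They also included normexp with an offset of 50 on median spot intensities, followed by quantile normalization. Software was limma 3.58.1 in R 4.3.3, and pandas 2.3.3 and numpy 2.4.6 in Python 3.11.15.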

Additional observations from a re-analysis of the deposited data

How the results depend on the processing

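With a single array per group, leaving out a replicate or blocking on slide gives no value. No paired analysis was possible because neither group holds a replicate. Over the 13 alternatives, between 2 and 4 of the 8 genes were more than 2-fold higher. Cps1 and Arg1 were among them under all 13, Otc under all but the one that keeps only probes well above background in both groups, where it has no ratio by construction, and Nags was added where dim probes had no bound, at 1.08. The ranges of the log2 ratios were 1.01 to 2.28 for Cps1, 1.79 to 3.63 for Otc, 0.73 to 0.93 for Ass1, 0.18 to 0.38 for Asl, 2.21 to 3.43 for Arg1, -0.13 to 0.06 for Arg2 and 0.12 to 1.08 for Nags. Slc25a15 had a value, 0.78, only with no filter.

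The median over the members was 0.73 with no scaling and 1.08 with no bound for dim probes. Without scaling, the median over all gene names was -0.20 in place of -0.03, and the share of changed genes that were higher was then 63.1%, against 77.7%. Pathway genes more than 2-fold higher numbered 0 under normexp, 1 for probes well above background in both groups and 5 with no filter. The 685 changed gene names became 303 under normexp, 1090 with no bound, 338 for probes well above background in both groups, 2562 with no filter and 426 for RefSeq mRNA accessions. Of the 27117 gene names with a ratio, the settings left 25453 (well above background in both pools) and 15941 (RefSeq mRNA accessions), and with no filter there were 37069. With no bound, 27119 had a ratio, so the values of dim probes changed and not the number tested. The cause of the other moves was not tested. Signal over background limits Nags, Slc25a15, Otc and Cps1 most, since their C signals were at most 1.69 times the lowest signal well above background.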
